A study of Mus musculus with 5 samples.

Results

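Mast cell progenitors were picked out among granulocyte-monocyte progenitors (GMP) of mouse bone marrow as barcodes that held at least 3 unique molecules (UMIs) of Gzmb, Cma1 and Scin together. Barcodes with 3 or more UMIs of Prss34, a basophil protease gene, or with 10 or more UMIs of the eosinophil genes Prg2, Epx, Prg3 and Ear6 were left out. Of 26759 GMP barcodes that passed a filter (at least 500 genes, at least 1000 UMIs and at most 10% mitochondrial UMIs), 773 met this rule. The series holds 43029 deposited barcodes in 5 droplet libraries, 1 of lymphoid-primed multipotent progenitors (LMPP), 1 of common myeloid progenitors (CMP) and 3 of GMP. All came from wild-type Balb/C mice of 8 to 12 weeks, whose marrow was enriched on c-Kit and then sorted as lineage-negative cells. GMP were gated as c-Kit+, Sca-1-, CD34+ and high for the Fc receptors CD16/32, CMP as low for those receptors, and LMPP as Sca-1+, CD34+ and Flt3+. The 3 GMP libraries are stated to be biological replicates, and the number of mice behind each was not given in the sources used here.

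Mast cells are tissue-resident cells of type 2 immunity that store histamine, heparin and proteases in granules and release them when IgE on their surface is cross-linked. They leave the marrow as sparsely granulated progenitors, which enter gut and other tissues with the help of integrin alpha4beta7 and mature there under the Kit ligand. Their marrow precursors share a path with basophils. The transcription factors Mitf on the mast cell side and Cebpa on the basophil side are known to set the balance between the 2 fates.

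The choice used the raw counts of 8 genes, so their levels describe the selection and were not tested. Gzmb encodes granzyme B, a serine protease of cytotoxic granules that mast cells also make, Cma1 encodes mast cell chymase, and Scin encodes the actin-severing protein scinderin. At least 1 Gzmb UMI was present in 734 of the 773 members, a Scin UMI in 508 and a Cma1 UMI in 456. All 3 genes were found in 257 members, Gzmb and Scin without Cma1 in 237, Gzmb and Cma1 without Scin in 166, and Gzmb alone in 74. The members' sum over the 3 genes had a median of 12 and reached 118. At the edge of the rule, the 25, 21 and 11 cells with a sum of 3 had Cpa3 at 584, 138 and 322 CPM (UMIs of a gene scaled to the total UMIs of the cell set) in GMP libraries 1, 2 and 3, and the 76, 110 and 95 cells with a sum of 2, just outside, had 176, 161 and 69.5. In library 2 the cells on either side of the threshold thus lay close together in this gene.

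Cpa3 and Cyp11a1, markers that the rule did not use, were read next. Cpa3, which encodes the granule carboxypeptidase of mast cells, had a UMI in 752 of 773 members (97.3%), and Cyp11a1, the enzyme that cleaves the cholesterol side chain, in 568. Summed over the members of each library, Cpa3 made 1521, 1726 and 1922 CPM, against 66.7, 76.6 and 51.6 in all other passing GMP barcodes. The same sums were 1007, 1213 and 1031 CPM in the 238 barcodes with 3 or more Prss34 UMIs, called Prss34 barcodes here, so Cpa3 marks both cell sets. Cyp11a1 had a UMI in 80.8%, 67.7% and 73.6% of members and in 75.3%, 71.2% and 65.6% of Prss34 barcodes, so it marks both as well. The presence of these 2 markers sets members apart from the GMP gate at large and does not tell them from Prss34 barcodes. Among the proteases of mature connective tissue mast cells, Tpsb2 and Mcpt4 were scarce in the members. Tpsb2, a tryptase, reached 28.4, 20.3 and 30.4 CPM, and Mcpt4, a chymase, 9.27, 11.5 and 9.17, and only 16 and 11 members had a UMI of them. Mrgprb1, a receptor of the Mrgpr family, was listed at 0 in all 3 libraries.

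**Figure D1:**
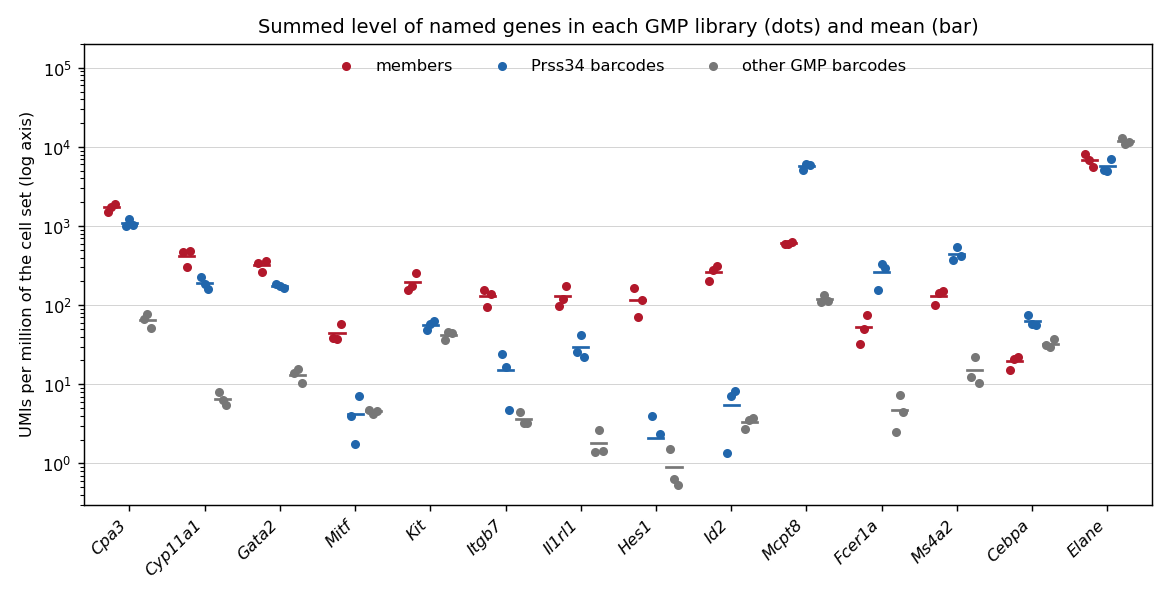
Summed level of 14 named genes (CPM, log axis) in members, Prss34 barcodes and other GMP barcodes of each GMP library. Points are libraries and bars are means of 3 libraries; Hes1 at 0 in the Prss34 barcodes of library 2 is not drawn. Cpa3, Gata2 and Cyp11a1 are high in members and Prss34 barcodes, Itgb7, Mitf, Hes1 and Id2 in members, and Mcpt8, Fcer1a and Ms4a2 are highest in Prss34 barcodes.

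Members made up 2.62% of the passing barcodes of GMP library 1 (239 of 9123, exact 95% Clopper-Pearson interval 2.30 to 2.97), 3.09% of library 2 (303 of 9799, 2.76 to 3.45) and 2.95% of library 3 (231 of 7837, 2.58 to 3.35). The mean was 2.89% ± 0.242 (SD, n = 3), and the intervals cover counting error only. Prss34 barcodes were fewer, at 73, 104 and 61. Outside the GMP gate the same rule found 86 of 7312 CMP barcodes (1.18%, 0.942 to 1.45) and 10 of 8033 LMPP barcodes (0.124%, 0.0597 to 0.229), from 1 library each. The share depends on depth. Among barcodes of 5000 UMIs or more, which hold 105, 136 and 112 members, the mean GMP share was 1.41% without thinning, an alternative chosen after seeing the data. It was 1.11% when those barcodes were also thinned to 5000 UMIs before the rule was applied.

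Gzmb and Cma1 are the 2 ends of 1 protease locus on mouse chromosome 14 that also holds Mcpt8, the gene of a basophil protease. A set list of 15 protease genes was placed by the GENCODE annotation of GRCm38 (mm10), and other genes of the span were not counted. They run from Cma1 (chr14:55941451-55944675) to Gzmb (chr14:56258838-56262260), a span of 321 kb. Cma1, Gzmb and Mcpt8 are all on the minus strand. Mcpt8 (chr14:56082166-56085273) and Ctsg, the cathepsin G gene (chr14:56099881-56102574), lie between them. The 250 bases before the RefSeq start (GRCm38.p6) of the 2 selected proteases and of Mcpt8 are shown because these neighbours had unlike levels in the cell sets, and that of Cpa3 (chr3:20242182-20242431, minus strand) because it was shared. Capitals mark matches on either strand to a GATA word, which was AGATAA or AGATAG, or the same with T first, TGATAA or TGATAG.
Cma1 (chr14:55944676-55944925, minus strand): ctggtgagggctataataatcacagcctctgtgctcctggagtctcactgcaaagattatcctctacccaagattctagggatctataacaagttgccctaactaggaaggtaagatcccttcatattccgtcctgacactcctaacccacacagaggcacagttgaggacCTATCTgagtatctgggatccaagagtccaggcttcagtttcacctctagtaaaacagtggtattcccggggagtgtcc
Gzmb (chr14:56262335-56262584, minus strand): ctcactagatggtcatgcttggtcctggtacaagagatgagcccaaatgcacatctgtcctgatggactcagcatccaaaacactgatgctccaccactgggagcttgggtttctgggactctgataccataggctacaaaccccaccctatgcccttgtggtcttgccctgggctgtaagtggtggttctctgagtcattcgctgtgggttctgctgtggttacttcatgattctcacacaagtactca
Mcpt8 (chr14:56085198-56085447, minus strand): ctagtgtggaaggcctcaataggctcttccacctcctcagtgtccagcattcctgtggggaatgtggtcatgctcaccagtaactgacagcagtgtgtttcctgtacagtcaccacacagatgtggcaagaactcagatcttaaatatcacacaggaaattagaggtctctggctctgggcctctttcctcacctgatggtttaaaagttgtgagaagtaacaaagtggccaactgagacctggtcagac
Cpa3: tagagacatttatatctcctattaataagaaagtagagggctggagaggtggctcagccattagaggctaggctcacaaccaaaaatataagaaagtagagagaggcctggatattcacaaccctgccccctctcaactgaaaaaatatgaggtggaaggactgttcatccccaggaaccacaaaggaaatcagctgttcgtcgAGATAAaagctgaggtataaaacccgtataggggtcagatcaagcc
One word was found 79 bases before the start of Cma1 and 1 word 46 bases before that of Cpa3, while the windows of Gzmb and Mcpt8 held none of these words. Of all 32851 windows of this length in the promoter table, 26.5% hold at least 1.

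Across this locus the members and the Prss34 barcodes had unlike profiles. The sums of Cma1, a rule gene, were 944, 958 and 1260 CPM in the members and 1.33, 7.92 and 92.7 in the Prss34 barcodes. Of the 79 Cma1 UMIs in the Prss34 barcodes of library 3, 78 came from 1 cell. Mcpt8 showed the reverse, with 587, 589 and 631 CPM in the members against 5166, 6046 and 5991 in the Prss34 barcodes and 111, 134 and 112 in the other GMP barcodes. The members thus lay between the other sets in Mcpt8, above every other-barcode sum and below every Prss34 sum. Ctsg, an azurophil granule protease next to Mcpt8, was instead highest outside the members, at 1922, 2459 and 2141 CPM in them against 3148, 3725 and 3851 in the other barcodes. Cma2, which lies next to Cma1, and Mcpt2, further along, gave 34 and 91 UMIs in the members and none in the Prss34 barcodes. The 91 Mcpt2 UMIs came from 13 members, 51 of them from 1 cell. Whether reads were shared between these related protease genes was not tested. The 6 genes Mcpt9, Gzme, Gzmd, Gzmg, Gzmn and Gzmf had no UMI in the members.

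**Figure D2:**
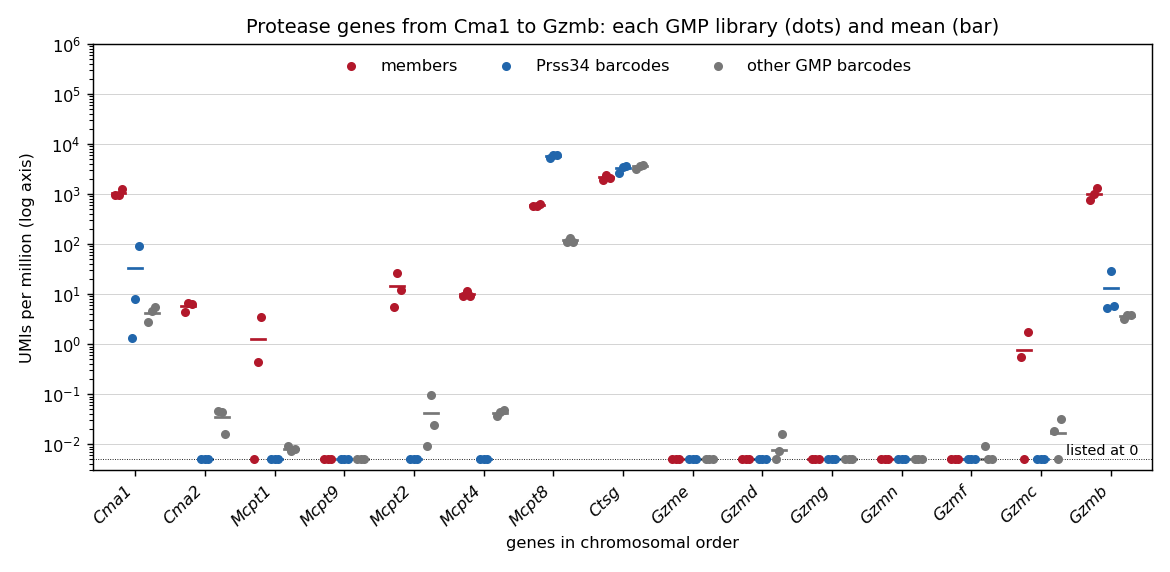
Summed level (CPM, log axis) of the 15 protease genes from Cma1 to Gzmb in chromosomal order, in members, Prss34 barcodes and other GMP barcodes of each library. Points are libraries, bars are means, and the dotted line marks genes listed at 0. Cma1 and Gzmb, at the ends, are high in members, and Mcpt8 is highest in Prss34 barcodes.

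The members differed among themselves in Mcpt8 and in the azurophil protease Elane. No Mcpt8 UMI was seen in 377 of 773 members, and the 94 members with 10 or more held 76.9% of all Mcpt8 UMIs. Elane, the neutrophil elastase gene that dominates the GMP gate, had a UMI in 770 members, with a median of 11 UMIs and a highest value of 1156. As a share of a member's own UMIs, Elane had a median of 0.253%, a 10th percentile of 0.136% and a 90th of 1.04%. The median was 0.251%, 0.25% and 0.255% in the 3 libraries. The 90th percentile was 1.36%, 1.11% and 0.785%, so the libraries differed more at the upper end than at the median. A doublet caller marked 23 of 239, 34 of 303 and 22 of 231 members, 79 of 773, and these were kept. It marked 7.61%, 7.99% and 6.42% of all passing barcodes of the 3 libraries. The marked members were deep. The member sums held 1833327, 2269498 and 1744075 UMIs with them and 1366213, 1553166 and 1286996 without them. No member barcode was shared between libraries, and each pair of libraries shared between 13 and 33 deposited barcodes.

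Members had fewer UMIs per barcode and lower cell cycle gene levels than the other barcodes in all 3 GMP libraries. Their median was 4473, 4595 and 4868 UMIs per barcode, against 11259, 13384 and 15600.5 in the other GMP barcodes and 8115, 8987 and 10715 in the Prss34 barcodes. The medians were 0.312 to 0.397 of those of the other barcodes, lower in 3 of 3 libraries (exact sign-flip permutation test, two-sided, p = 0.25, the smallest that 3 libraries allow). Mki67, a gene of cycling cells, had a UMI in 26.4%, 31% and 29.9% of members and in 57.1%, 69.1% and 69.5% of the other barcodes. These shares are from cells not thinned, and detection of a gene falls with depth. After every cell was thinned to 2000 UMIs, which left out 32, 31 and 15 members and 235, 80 and 64 other barcodes, 26 S phase genes gave 2.86, 2.97 and 2.95 UMIs per member. The other barcodes gave 4.62, 4.91 and 5.07, and the Prss34 barcodes 4.14, 4.09 and 4.31. The 26 G2M genes gave 2.47, 2.71 and 2.37 UMIs per member against 3.78, 4.4 and 4.02 in the other barcodes. Members were below the other barcodes in every library for both lists (exact sign-flip permutation test, p = 0.25). Mitochondrial UMIs made up 0.72%, 1.23% and 1.34% in members, and 0.79%, 1.30% and 1.4% in the other barcodes.

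**Figure D3:**
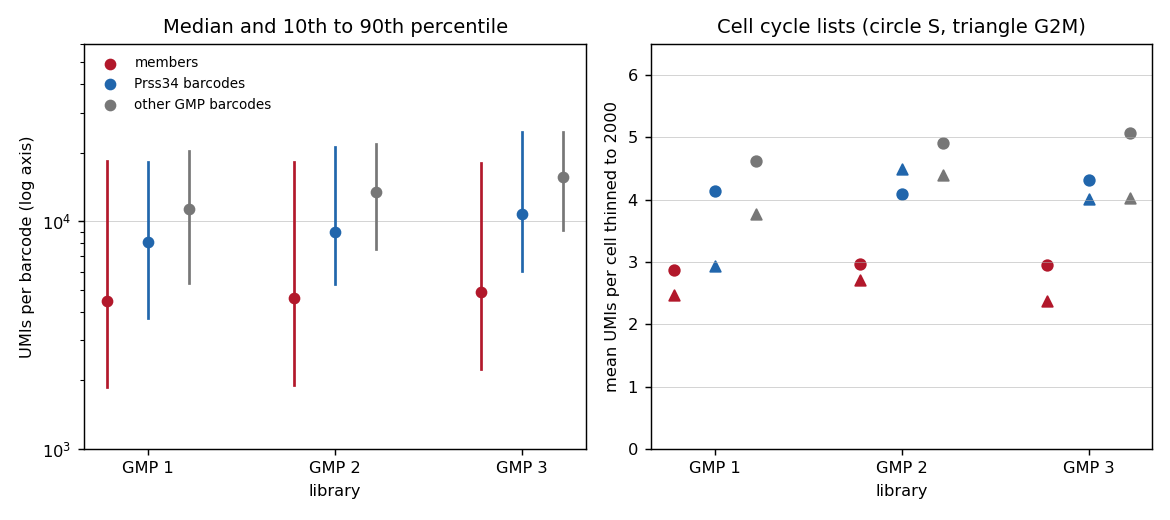
Left, UMIs per barcode (log axis) in members, Prss34 barcodes and other GMP barcodes of each GMP library, with the median as a point and the 10th to 90th percentile as a line. Right, mean UMIs of the S phase (circles) and G2M (triangles) gene lists per cell thinned to 2000 UMIs. The members' medians, 4473 to 4868, lie below those of the other sets in every library.

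Members were first compared with all other passing GMP barcodes. UMIs were summed per library and cell set, and each library was a block because both of its sums came from 1 droplet run. By the quasi-likelihood test of edgeR, after Benjamini-Hochberg adjustment, 2779 of 15364 genes were higher (18.1%) and 3846 lower (25.0%), with the 8 rule genes left out. Of these, 1477 were more than 2-fold higher and 409 more than 2-fold lower. The split depends on the scaling. With TMM factors 42% of the calls were higher and the median log2 difference of all genes was -0.10. When scaled by total UMIs, an alternative chosen after seeing the data, 4368 genes were higher and 1814 lower, and the median was 0.18. The cells were chosen on 3 genes, so genes that accompany those 3 had to differ, and the tests describe what accompanies the choice. Log2 differences are members minus the other set with their SE.

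Among genes at 50 CPM or more in the members, those with the greatest increase were Hes1, Trbc1, Hs6st2, Id2 and Il1rl1. Hes1, a transcriptional repressor downstream of Notch, was at 165, 71.8 and 115 CPM in the members and at 1.5, 0.639 and 0.526 in the other barcodes, a log2 difference of 6.73 ± 0.14 (adjusted p = 2.1e-101). Id2, an inhibitor of helix-loop-helix transcription factors, was at 202, 278 and 309 against 2.71, 3.54 and 3.79 (5.99 ± 0.08, adjusted p = 3.3e-131). Both genes were higher in 3 of 3 libraries and the groups did not overlap. Here and below, non-overlap is stated for named genes only, and its share over all tested genes is not given. Hs6st2, a sulfotransferase that modifies heparan sulfate chains, was at 43.1, 57.7 and 60.2 against 0.508, 0.468 and 0.446 (6.44 ± 0.20). Lag3, an inhibitory receptor best known from T cells, rose by 5.11 ± 0.17, and Slc45a3, a prostein-family transporter, by 5.04 ± 0.14.

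Transcription factors split by lineage. Of 32 tested mast and basophil transcription factors, 22 were higher and 4 lower, with a median log2 difference of 1.01. Gata2 was at 343, 259 and 362 CPM in the members and at 13.8, 15.4 and 10.4 in the other barcodes (4.31 ± 0.08, adjusted p = 8e-108). Mitf, the factor that drives mast cell granule genes, was at 38.7, 37.5 and 57.9 against 4.78, 4.25 and 4.63 (2.98 ± 0.14), and Gata1 rose by 2.65 ± 0.22. Neither gene's groups overlapped. Of 17 granulocyte and monocyte factors, 11 were lower and 3 higher (Ahr, Id3 and Runx3), with a median of -0.77. Id3 did not pass without GMP replicate 1 (1.18, adjusted p = 0.46). Cebpa, the driver of granulocyte fate, was at 15.3, 21.2 and 21.8 against 31.4, 29.6 and 37.0 (-1.02 ± 0.13, adjusted p = 9.2e-13). Irf8, a monocyte and dendritic cell factor, fell by 1.16 ± 0.08 on the log2 scale. Spi1, which encodes PU.1, changed by -0.77 ± 0.08.

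Receptor and adhesion genes were mixed by list. Of 19 tested inhibitory and surface receptors of mast cells and basophils, 5 rose and 7 fell, with a median of -0.37. Of 22 growth factor and cytokine receptors, 11 rose and 5 fell, the latter a share near the 25.0% of all genes. Il1rl1, the receptor chain for the alarmin of type 2 immunity, was at 97.1, 121 and 177 CPM in members and at 1.41, 2.64 and 1.44 in the other barcodes (5.85 ± 0.12, adjusted p = 1.2e-101). Kit was at 155, 176 and 252 against 36.0, 45.7 and 44.3 (1.90 ± 0.07), although every cell of the gate had been sorted on c-Kit. Il2rg, the common gamma chain (3.42 ± 0.08; chosen after its values were seen), and Il9r (6.29 ± 0.42) also rose. Of 23 tested integrin, adhesion and chemotaxis genes, 16 rose and 2 fell. Itgb7, the beta7 chain of the gut-homing integrin, was at 157, 93.4 and 138 against 4.42, 3.28 and 3.22 (4.83 ± 0.10, adjusted p = 8e-101). Its partner Itga4 was at 558, 573 and 667 against 55.0, 70.3 and 63.9 (2.96 ± 0.07).

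The gate genes gave a different picture from Kit. Cd34 was at 109, 133 and 149 against 84.7, 102 and 102, a difference of 0.14 ± 0.08 that did not pass (adjusted p = 0.13). Fcgr3, the CD16 gene, rose by 0.88 ± 0.08, and Fcgr2b, the CD32 gene, was at 21.8, 29.5 and 25.8 against 26.0, 32.2 and 36.4. The groups of Fcgr2b overlapped, and its difference of -0.57 ± 0.12 passed with TMM factors but not when scaled by total UMIs (adjusted p = 0.062).

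Among the genes of IgE signalling, 11 of 17 were higher and 2 lower (Plcg2 and Ptpn6), with a median of 1.33. The alpha chain Fcer1a was at 32.7, 49.8 and 75.1 CPM against 2.50, 7.36 and 4.42 (3.18 ± 0.14), the beta chain Ms4a2 at 99.8, 143 and 153 against 12.5, 22.1 and 10.5 (2.87 ± 0.09), and the gamma chain Fcer1g rose by 1.33 ± 0.07. All 3 chains of the receptor were higher in 3 of 3 libraries. The adaptors Lat2 (3.32 ± 0.07), Lat (4.24 ± 0.14) and Grap2 (5.72 ± 0.33) rose as well.

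Genes for granule contents and lipid mediators differed from list to list. Of 20 genes for heparin and chondroitin sulfate synthesis, 10 were higher and 1 lower; Ndst2, the heparin N-deacetylase and sulfotransferase, was at 50.7, 40.1 and 64.8 against 5.53, 6.09 and 6.78 (2.76 ± 0.13). Papss2, which makes the sulfate donor, rose by 2.69 ± 0.09, whereas Srgn, the core protein of the granule proteoglycan, was at 2374, 3155 and 3323 against 1806, 2442 and 2659 and did not pass (0.07 ± 0.06, adjusted p = 0.4). In histamine handling, the vesicular transporter Slc18a2 rose by 4.03 ± 0.12 and the histamine-forming enzyme Hdc by 0.54 ± 0.08. Of 13 genes for leukotriene and prostaglandin synthesis, 3 rose (Alox5, Hpgds and Ltc4s) and 4 fell, shares near the 18.1% and 25.0% of all genes, with a median of -0.21. Alox5, the first enzyme of leukotriene synthesis, was at 77.5, 61.2 and 105 against 2.13, 2.21 and 1.79 (4.98 ± 0.14), and Hpgds, the prostaglandin D synthase of mast cells, at 24, 22 and 26.4 against 0.753, 1.08 and 0.710 (4.49 ± 0.24). Of 20 tested genes of secretory granule traffic, 6 rose and 6 fell, with a median of 0.15. Rab27b, a GTPase of granule docking, was among the higher ones (5.72 ± 0.21). Of 14 tested cytokine and chemokine genes, 7 rose and 4 fell. Il13 and Il6 were at low levels, with 108 and 86 UMIs over all members. Both were higher than in the other barcodes (6.63 ± 0.34 and 5.49 ± 0.33).

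Azurophil granule genes, which GMP transcribe heavily, were lower. Of 10 tested, 9 were lower and Ctsc, the activator of granule proteases, was higher. Elane stood at 8183, 6785 and 5511 CPM in members and at 13027, 10737 and 11640 in the other barcodes (-1.09 ± 0.07, adjusted p = 2.3e-33). Prtn3, proteinase 3, fell by 1.11 ± 0.07. With every cell thinned to 2000 UMIs, which gives shallow and deep members equal weight, both differences became -1.85. Of 14 monocyte genes 9 and of 12 neutrophil granule genes 6 were also lower. Trem3 (-1.27 ± 0.11) and S100a8 (-1.25 ± 0.09) had the largest decreases among genes above 50 CPM, and they became -2.10 and -2.07 after thinning.

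Cell cycle and protein folding genes were lower together. All 26 S phase genes passed as lower, with a median of -0.68, and 24 of 26 G2M genes, with a median of -0.66. Kif23, a kinesin of cytokinesis, was the 1 G2M gene that was higher (0.80 ± 0.09; chosen after its values were seen). All 17 tested genes of endoplasmic reticulum folding were lower, with a median of -0.74. Among them, Calr, the chaperone calreticulin, was at 1162, 1423 and 1445 against 1740, 2153 and 2334 (-0.91 ± 0.07). When scaled by total UMIs, 23 S phase, 20 G2M and 16 folding genes passed as lower. Among 22 heat shock and immediate early genes, 14 rose and 4 fell, with a median of 1.59. Jun was at 4197, 2794 and 3654 against 1106, 761 and 854 (1.68 ± 0.07), and Egr1 at 627, 404 and 681 against 45.1, 31.9 and 31.5 (3.68 ± 0.07). These genes can respond to cell isolation as well as to signals in the animal, and what part either has here was not tested.

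Markers of other cell types were read for the whole lists. The 20 T and NK cell genes summed to 857, 903 and 782 CPM in the members and to 723, 686 and 715 in the other barcodes, with 13, 8 and 8 of the 20 listed at 0 in the members. Of 11 tested genes of the list, 5 were higher in the members (Trbc1, Prf1, Il7r, Klrd1 and Trbc2) and 1 was lower (Nkg7, which was higher by 0.12 when scaled by total UMIs). Most of the sum was Nkg7, which GMP also express, at 776, 827 and 687 CPM. Trbc1, a constant segment of the T cell receptor beta chain, was at 69.8, 59.5 and 70.0 against 0.544, 0.535 and 0.646 (6.48 ± 0.18, adjusted p = 6.7e-81). Trbc1 had a UMI in 200 members. The defining T cell gene Cd3e had a UMI in 5 members, for 5 UMIs in all (0, 0.441 and 2.29 CPM), against 7 UMIs in 25986 other barcodes (0.00907, 0.0148 and 0.0319 CPM), and was too low to test. Trbc2, the other constant segment, had 6 UMIs in the members (1.09, 0.881 and 1.15 CPM) and 15 in the other barcodes. Prf1, the perforin gene, was at 4.91, 4.41 and 9.17 CPM against 0.172, 0.0965 and 0.128, with a UMI in 33 members (4.27%) and in 0.177% of the other barcodes. Cd8a, Gzma and Ncr1 were at 0 in the members of all 3 libraries and in the other barcodes too, so they do not tell the sets apart. The 17 stem and multipotent genes summed to 1382, 1260 and 1602 against 494, 499 and 460, and Meis1 (2.82 ± 0.11) and Sox4 (1.92 ± 0.07) were among the 7 higher genes of that list. The 14 erythroid genes summed to 194, 183 and 221 against 68.1, 74.0 and 71.4. The part of each of these lists in the differences above was not tested.

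**Figure D4:**
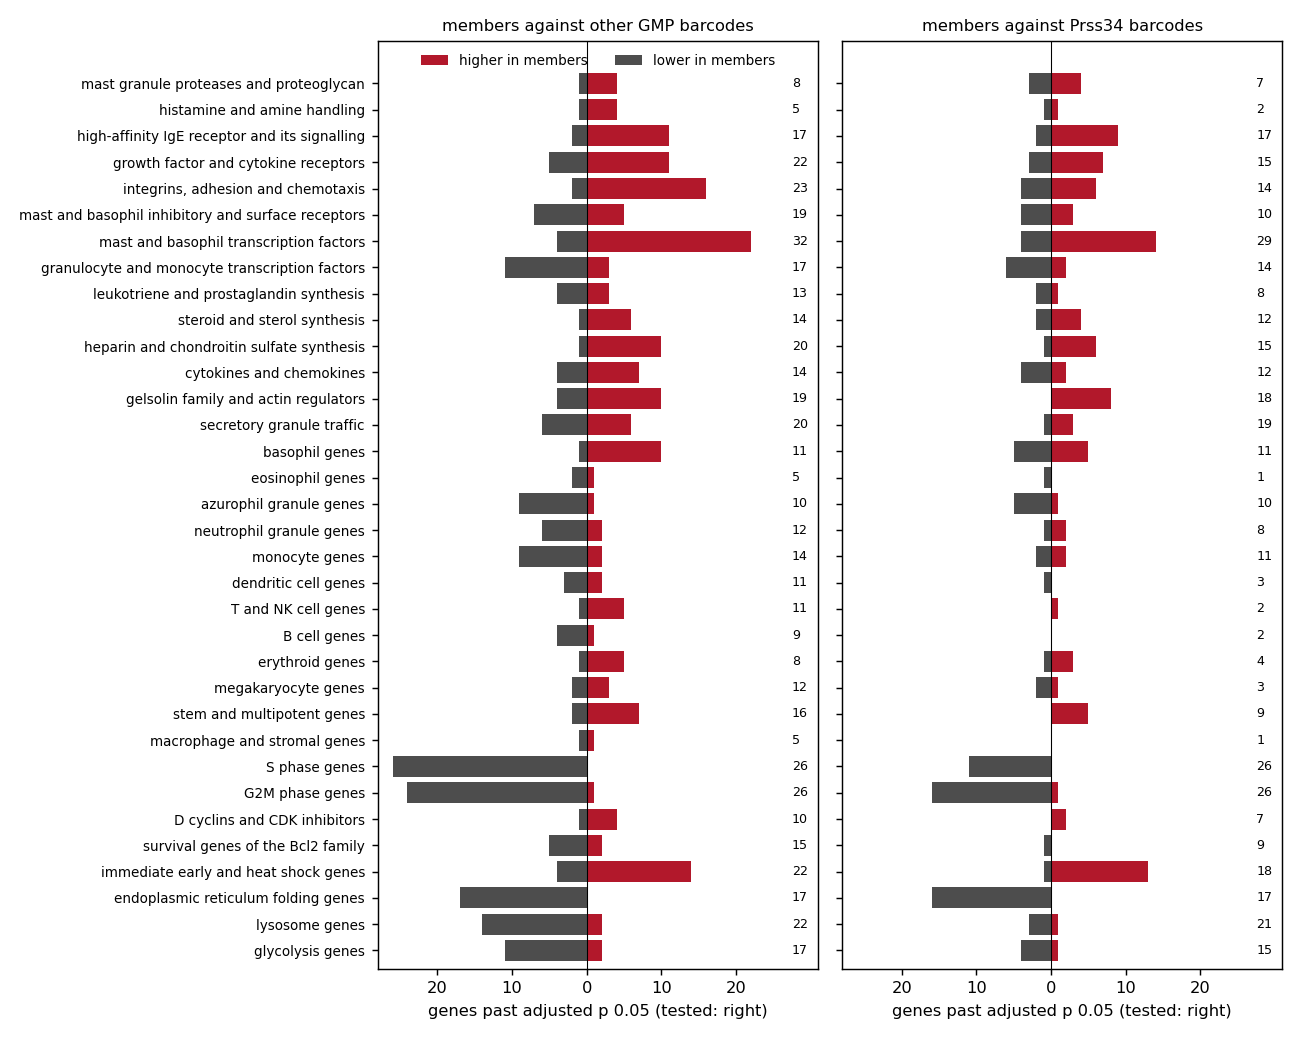
Number of genes of each list that passed an adjusted p of 0.05 as higher (red, to the right) or lower (grey, to the left) in members, against other GMP barcodes (left panel) and against Prss34 barcodes (right panel). The number at the right edge is how many genes of the list were tested. S phase, G2M and endoplasmic reticulum folding genes lie to the left in both panels and transcription factors of mast cells and basophils mostly to the right.

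Detection was also compared at equal depth. With each cell at 2000 UMIs, Cpa3 was found in 81.7% of members, 77.1% of Prss34 barcodes, 10.1% of other barcodes and 4.59% of barcodes with monocyte genes (means of 3 libraries), which stand in for the level of free RNA. Gata2 was found in 51.2% of members and 1.21% of monocyte-type barcodes, and Itgb7 in 31.2% and 0.895%. Mcpt8 was found in 31.4% of members, 84.3% of Prss34 barcodes and 8.05% of monocyte-type barcodes. Fcer1a was detected in 12.7% of members against 38.8% of Prss34 barcodes. The members' shares of these 4 genes lay above the share in monocyte-type barcodes. Without thinning, the monocyte-type barcodes were the deeper set, with medians of 13798, 15538 and 17291 UMIs.

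The nearest lineage by rule was the set of Prss34 barcodes, which served to describe how members differed from basophil-type cells. Both sets were chosen on rule genes, so genes that accompany either choice had to differ. The tests describe what accompanies these choices. These barcodes are not purely basophil, since no limit on eosinophil genes was set, and Prg2, the major basic protein gene, summed to 3849, 2331 and 4427 CPM in them. With the same test, 947 of 8496 genes were higher in members (11.1%) and 680 lower (8.00%), 387 and 67 of them by more than 2-fold. The higher share of the calls was 58%. It was 47% with DESeq2 size factors (828 higher, 925 lower) and 78% when scaled by total UMIs (1459 higher, 404 lower). The DESeq2 Wald test called 262 higher and 299 lower.

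Id2 and Hes1 again had the greatest differences. Id2 was at 202, 278 and 309 CPM in the members and at 1.33, 7.04 and 8.21 in the Prss34 barcodes (5.11 ± 0.20, adjusted p = 8.2e-26), and Hes1 at 165, 71.8 and 115 against 4.0, 0 and 2.35 (5.03 ± 0.26). The Prss34 side of Hes1 rests on 5 UMIs, and the ratio of the sums was 62.3 with a counting interval of 26.6 to 192. Trbc1 gave 385 UMIs in members and 4 in Prss34 barcodes, and Hs6st2 gave 315 and 3, a ratio of 49.2 (16.7 to 240). Ahnak (4.08 ± 0.23), a scaffold protein, S100a6 (3.78 ± 0.24), a calcium-binding protein, Basp1 (3.85 ± 0.21) and Cx3cr1 (2.87 ± 0.20), the fractalkine receptor, followed. The 2 sets did not overlap in any of these named genes, and the share of all tested genes without overlap is not given.

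Several genes of mast cell identity separated the members from the Prss34 barcodes too. Mitf was at 38.7, 37.5 and 57.9 CPM against 4.0, 1.76 and 7.04 (2.96 ± 0.28, adjusted p = 7.7e-12). Itgb7 was at 157, 93.4 and 138 against 24, 16.7 and 4.69 (2.83 ± 0.20), and Itga4 at 558, 573 and 667 against 84.0, 133 and 76.3 (2.45 ± 0.12). Kit was at 155, 176 and 252 against 48.0, 57.2 and 63.4 (1.62 ± 0.13), and Il1rl1 at 97.1, 121 and 177 against 25.3, 42.2 and 22.3 (1.90 ± 0.17). In each of these 5 genes every member sum was above every Prss34 sum. Mcpt2 and Mcpt4 had no UMI in the Prss34 barcodes, against 91 and 59 in members, at least 14.2-fold and 9.21-fold more of the summed UMIs by a floor of 3 counts over the 3 libraries. Only 13 and 11 of the 773 members carried them, so these sums describe few cells. Hpgds gave 140 UMIs in 111 members and 2 in Prss34 barcodes. Genes that the sets shared differed less: Cpa3 by 0.54 ± 0.09, Gata2 by 0.73 ± 0.10 and Cyp11a1 by 0.98 ± 0.11, all passing, while Gata1 (-0.39 ± 0.23, adjusted p = 0.24) and Csf2rb, the common beta chain (0.07 ± 0.11, adjusted p = 0.71), did not pass.

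The basophil list was split between the sets. Of 11 tested basophil genes, 5 were higher in the members (Gpr141, Cyp11a1, Ifitm1, Cpa3 and Lmo4) and 5 lower, with a median of 0.31. Neither Ifitm1 (adjusted p = 0.32) nor Lmo4 (adjusted p = 0.67) passed by the DESeq2 Wald test, and Lmo4 did not pass without replicate 3 (0.11, adjusted p = 0.21). Mcpt8, Fcer1a and Ms4a2 were among the lower genes, and so was Cebpa, which is not on that list. Mcpt8 differed by -3.37 ± 0.09 (adjusted p = 2e-31), with the sums given above. Fcer1a was at 32.7, 49.8 and 75.1 CPM against 157, 332 and 297 (-2.44 ± 0.12), and Ms4a2 at 99.8, 143 and 153 against 367, 540 and 414 (-1.86 ± 0.10). Cebpa was at 15.3, 21.2 and 21.8 against 74.7, 58.1 and 56.3 (-1.73 ± 0.18, adjusted p = 1.1e-10), and Hdc at 126, 136 and 174 against 293, 235 and 264 (-0.98 ± 0.11). The groups did not overlap in these 4 genes. Thus the alpha and beta chains of the IgE receptor were higher in members than in the GMP gate at large and lower than in Prss34 barcodes, while 9 of the 17 genes of that signalling list were higher than in Prss34 barcodes. Anxa1 (-2.11 ± 0.12), the annexin A1 gene, Ets1 (-2.03 ± 0.20), a transcription factor, Csf1 (-1.83 ± 0.19), a macrophage growth factor, and Arsb (-1.88 ± 0.19), a lysosomal sulfatase, were also lower.

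The shared features of the 2 progenitor sets and their differences in cell state were read from the lists. Elane (0.12 ± 0.11, adjusted p = 0.5) and Prtn3 (0.04 ± 0.10, adjusted p = 0.81) did not pass between members and Prss34 barcodes, with overlapping sums. Deep members weigh most in these sums. Elane made a median of 0.253% of a member's own UMIs, which is below its level in the member sums (8183, 6785 and 5511 CPM). The sums therefore do not show that a typical member matched the Prss34 barcodes in Elane. Ctsg (-0.71 ± 0.09) and Calr (-1.04 ± 0.09) were lower in members. Of 17 folding genes, 16 were lower in members, with a median of -0.64 against 0.03 for all genes. Of 26 S phase genes 11 were lower and of 26 G2M genes 16, and among 18 heat shock and immediate early genes 13 rose and 1 fell. Of 29 transcription factors of mast cells and basophils, 14 were higher and 4 lower. Cd34 was higher by 0.70 ± 0.13, except by the DESeq2 Wald test (adjusted p = 0.058), and Cdkn1b, an inhibitor of cell cycle entry, by 0.86 ± 0.17, with the same exception (adjusted p = 0.085).

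Members with and without Cma1 were compared to describe variation within the set. Cma1 is a rule gene, so the arms differ by the selection itself: members without Cma1 had to reach 3 UMIs through Gzmb and Scin, while 3 Cma1 UMIs sufficed alone. The calls therefore describe 2 arms chosen on Cma1, and no part of them was separated from that choice. Members with 3 or more Cma1 UMIs numbered 97, 122 and 97, and those with none 101, 118 and 98. The first arm was the shallower, with medians of 3921, 3212 and 4012 UMIs per barcode against 4810, 4842 and 5327. Mcpt8 was present in 210 of 316 Cma1-high members (66.5%) and in 113 of 317 members without Cma1 (35.6%). Of 6794 tested genes, 99 were higher (1.46%) and 91 lower (1.34%) with Cma1. These counts rest on few libraries. Without GMP replicate 2 they were 51 and 60, and without replicate 3 they were 41 and 30. The DESeq2 Wald test called 20 and 20, and 26 of 54 named genes kept their call by it.

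Several granule genes were higher in the Cma1-high arm. Tpsb2 gave 151 UMIs there and none in the arm without Cma1, at least 53.3-fold more of the summed UMIs by a floor of 3 counts over the 3 libraries. These UMIs came from 16 of 316 cells (5.06%), up to 23 in 1 cell, so most Cma1-high members had none. Mcpt8 was at 897, 1006 and 1311 CPM against 394, 343 and 195 (1.76 ± 0.12, adjusted p = 5.5e-48), so the basophil protease of the locus was higher where chymase was higher. Cpa3 was at 2019, 3198 and 3007 against 1162, 986 and 1213 (1.25 ± 0.11). Cyp11a1 was at 627, 625 and 828 against 392, 134 and 240 (1.48 ± 0.12), and Hpgds at 42.5, 50.1 and 48.3 against 9.87, 11.3 and 9.83 (1.91 ± 0.27). In each of these 4 tested genes the arms did not overlap. Socs2, an inhibitor of cytokine signalling (2.36 ± 0.24), Rab27b (1.74 ± 0.21), Hs6st2 (1.60 ± 0.20), Il1rl1 (1.27 ± 0.14) and Alox5 (1.17 ± 0.16) rose as well. Fcer1a was at 34.5, 100 and 151 against 29.6, 35.2 and 21.1 (1.56 ± 0.19), with arms that overlapped and an adjusted p of 1 by the DESeq2 Wald test.

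Genes higher without Cma1 included Ifitm1, Trbc1 and Lmo4. Ifitm1, an interferon-induced membrane protein, was at 3737, 2448 and 4279 CPM without Cma1 and at 1096, 1017 and 1286 with it (-1.61 ± 0.12, adjusted p = 9.5e-41). Trbc1 was at 111, 76.0 and 108 against 26.6, 48.7 and 35.2 (-1.36 ± 0.18), and Lmo4, a cofactor of Gata proteins, at 1490, 1642 and 2134 against 712, 1038 and 930 (-0.99 ± 0.11). These arms did not overlap. Csrp3 (-1.44 ± 0.15), Marcksl1 (-1.15 ± 0.17) and Hdac7 (-1.10 ± 0.17) were lower with Cma1 too. Gata2 was at 343, 298 and 404 with Cma1 and at 375, 259 and 355 without it (0.06 ± 0.11, adjusted p = 0.92), and Itgb7 (0.10 ± 0.14, adjusted p = 0.87) and Cd34 (0.14 ± 0.14, adjusted p = 0.82) did not pass either. Mitf (0.83 ± 0.20) and Kit (0.67 ± 0.12) passed with overlapping arms. Neither passed without the library block (adjusted p = 0.12 and 0.075) or by the DESeq2 Wald test (adjusted p = 1 and 0.14), and Mitf not without replicate 2 (adjusted p = 0.15) or replicate 3 (adjusted p = 0.056). None of the 23 S phase and 24 G2M genes tested by edgeR passed.

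**Figure D5:**
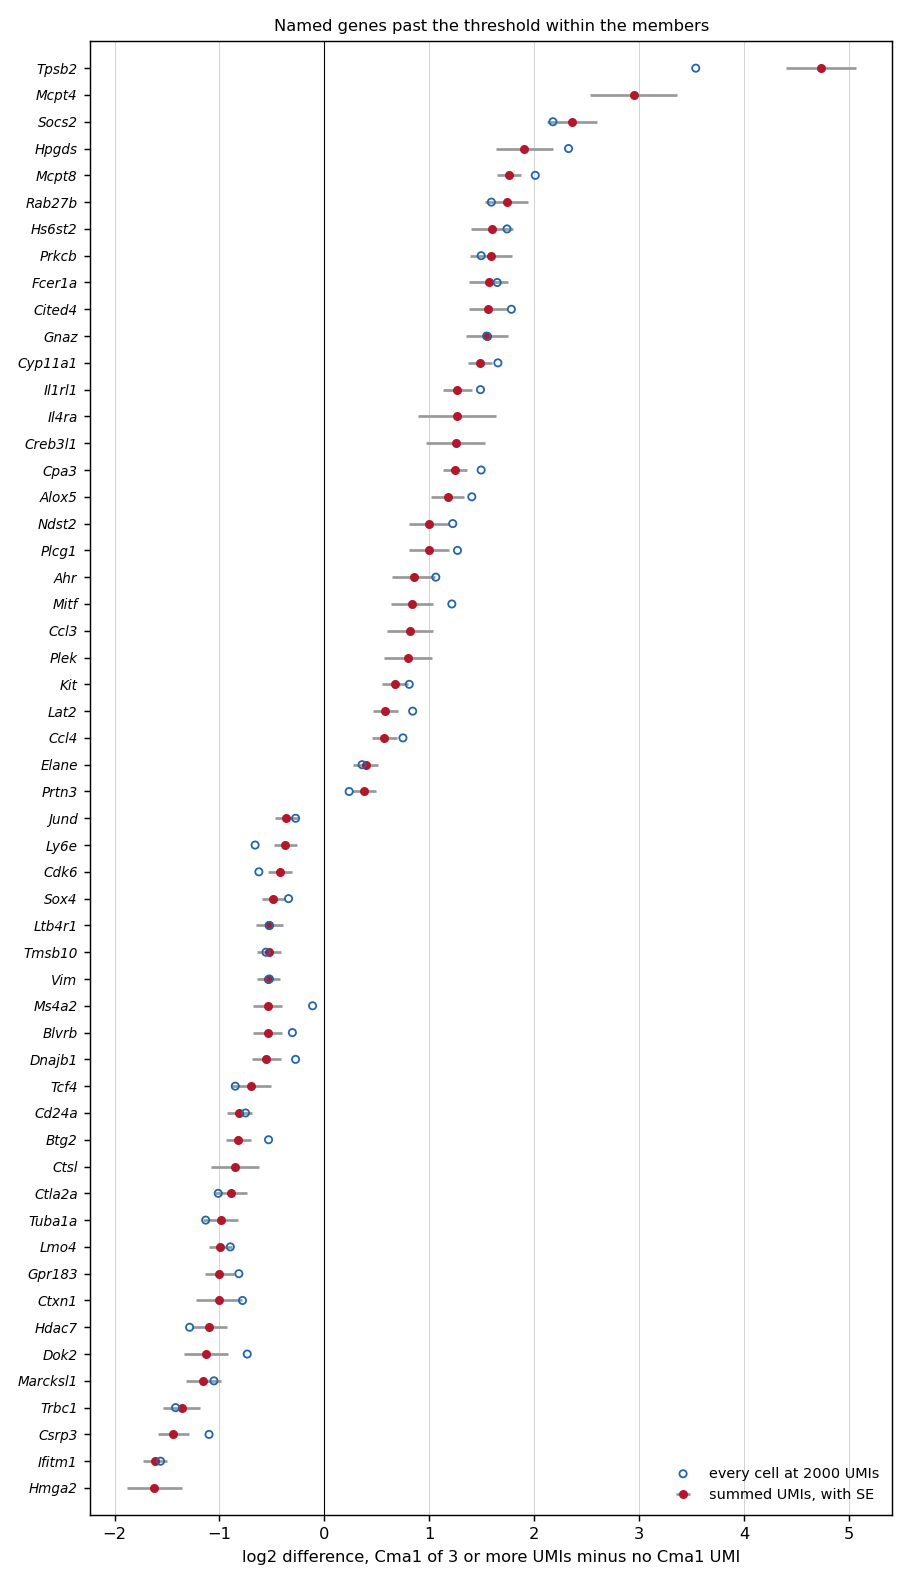
Log2 difference (filled points, with SE) between members with 3 or more Cma1 UMIs and members without Cma1 for the named genes past an adjusted p of 0.05, and the same difference with every cell thinned to 2000 UMIs (open points, where tested). Tpsb2, Mcpt4, Socs2, Hpgds and Mcpt8 lie furthest right, and Hmga2, Ifitm1, Csrp3 and Trbc1 furthest left. The Tpsb2 point depends on the prior count, since the arm without Cma1 had no UMI, and it rests on 16 cells.

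Barcodes that met the rule outside the GMP gate carried the same markers at other levels, from 1 library each and with no test. The 86 CMP barcodes had Cpa3 at 835, Gata2 at 459, Hes1 at 158 and Itgb7 at 84.2 CPM, and the other CMP barcodes 101, 87.5, 29.1 and 13.9. Their Cma1 level was 201 CPM and their Elane level 30.6, below the values of 944 to 1260 and 5511 to 8183 in the GMP members. No CMP barcode had 3 or more Prss34 UMIs. The 10 LMPP barcodes gave 195 Cpa3 and 27 Mcpt8 UMIs in all, too few cells to describe further.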

How the data were processed

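Droplet RNA libraries of sorted LMPP, CMP and GMP were used as deposited: the authors' matrices give raw UMI counts for each gene in each barcode. Reads were processed with Cell Ranger 3.1.0 and Seurat 3.1.1 on mm10, per the submitters' processing notes, while the file headers name Cell Ranger 6.1.1. How barcodes were kept is not given in the sources used here. All 55450 gene identifiers matched GENCODE M21. The deposited barcodes of the 3 GMP libraries summed to 112327644, 137141095 and 127387528 UMIs.

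Members were found by the rule above, and doublet calls were kept. UMIs were summed per library and cell set and fitted with edgeR 4.0.16 (limma 3.58.1, R 4.3.3) using glmQLFit, TMM, filterByExpr, a prior count of 2 and library as a block. The 2 sums of a library come from the same droplet run, which is where the pairing comes from. A fit of 6 sums leaves 2 residual degrees of freedom. Calls had an adjusted p under 0.05, and the 8 rule genes stayed in library sizes but out of the tests. Genes were named by size, 10 for each direction, at 50 CPM or more and of the same sign in 3 libraries, a fixed set of 16 lineage genes, and up to 4 genes of each of 34 lists. Genes named outside this rule to spell out a small count (Runx3, Plcg2, Ptpn6, Ltc4s, Ctsc, Trbc2, Klrd1 and Gpr141) were chosen after their values were seen. The members and lists were chosen with earlier results of these data known. The scripts were tested on simulated data. DESeq2 1.42.0 served as an alternative. The result of 1 gene that the naming rule selects is not reported here.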

Additional observations from a re-analysis of the deposited data

How the results depend on the processing

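With no replicate block, 273 genes were lower against Prss34 barcodes, and 42 were higher and 34 lower with Cma1. The block moved no other count by over 1.5 times. The DESeq2 Wald test called 2496 genes lower against the other barcodes, 262 higher and 299 lower against Prss34 barcodes, and 20 and 20 with Cma1. Scaling by total UMIs, chosen after seeing the data, gave 4368 and 1814 against the other barcodes and 1459 and 404 against Prss34 barcodes. There Tgfb1 (0.063), Nkg7 (0.12) and Npc2 (0.00866) reversed sign. With cells thinned to 2000 UMIs, 568 genes were higher and 410 lower than in Prss34 barcodes, fewer genes (4204) being tested. Leaving out 1 library gave 2209 to 2351 higher and 3264 to 3344 lower against the other barcodes, 666 to 791 and 482 to 624 against Prss34 barcodes, and 41 to 75 and 30 to 79 with Cma1. Against Prss34 barcodes S100a9 ranged from -0.033 to 1.25, reversing without replicate 1. The share of members was 2.50% at 5 or more UMIs, 3.94% at 2 or more, 1.41% among barcodes of 5000 UMIs or more, and 1.11% when these were also thinned to 5000 UMIs; the causes were not tested beyond the construction of each setting. Members of few UMIs hold few counts of any 1 gene, which limits statements on single cells.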
